A study of Homo sapiens with 6 samples.

Results

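The aminoacyl-tRNA synthetases are the enzymes that load each tRNA with its amino acid. They were followed here in RNA-seq data of HaCaT cells, a spontaneously immortalized human keratinocyte line. The 36 genes were chosen by symbol, as the members of the enzyme family, and all 36 were found by their Ensembl identifiers among the 21475 genes used from the deposited tables. The study compared 3 wild-type (WT) cell lines with 3 *FGFR2* knockout (KO) cell lines, 1 library per line, to find the genes whose expression differs when the FGF receptor FGFR2 is missing. Knockout lines came from single sorted cells after Cas9 cleavage at exon 7 of *FGFR2*, and the WT lines were clonally expanded or the starting population, so that each KO line is 1 clone and a difference between lines can also be one between clones. All lines were grown in serum-containing medium, and no agent or stimulus is given in the sample labels. Each library is a culture of a separate line, so that p-values measure the spread between these 6 lines, with no repeat of a line.

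Each synthetase recognizes an amino acid and the matching tRNAs, and the charged tRNA is then handed to an elongation factor for use on the ribosome. Cytosol and mitochondria translate separately. Most amino acids therefore have a pair of nuclear genes, 1 for each compartment, while *GARS1* (glycine) and *KARS1* (lysine) supply both compartments from the same gene. *EPRS1* joins the glutamate and proline enzymes in a single chain, and the phenylalanine enzyme of the cytosol is built from the subunits of *FARSA* and *FARSB*. Several cytosolic enzymes are held in a multi-tRNA synthetase complex around scaffold proteins. Many cytosolic synthetase genes are also known targets of ATF4, the transcription factor of the amino acid and integrated stress response, and *WARS1* (tryptophan) is known to be induced by interferon gamma. Of the 36 genes, 18 encode cytosolic enzymes or subunits, 2 serve both compartments and 16 encode mitochondrial enzymes.

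The sequences that bear on these genes are those in front of their start sites. RefSeq promoter windows (GRCh38.p14, 250 bases before to 50 after a start) were matched for 30 of the 36 genes. *AARS2*, *LARS1*, *TARS3*, *VARS1*, *VARS2* and *YARS1* were not among them. *HARS1* and *HARS2*, the histidine enzymes of cytosol and mitochondria, are transcribed away from each other on chromosome 5. Only 84 bases, chr5:140691371-140691454, lie between their RefSeq starts at 140691370 (*HARS1*, minus strand) and 140691455 (*HARS2*, plus strand). In the GENCODE annotation used for gene positions, *HARS1* reaches to 140691537 and *HARS2* begins at 140691430. By that annotation the genes overlap, and the interval lies within *HARS1*, so it is not free of annotated transcripts. The interval is shown because the histidine pair is compared below. It is printed on the plus strand with the letters CCGGAA, or TTCCGG on the other strand, in capitals. This core of ETS factor sites occurs 3 times in the interval, and 17.2% of 35116 promoter windows hold it.
HARS1-HARS2 interval: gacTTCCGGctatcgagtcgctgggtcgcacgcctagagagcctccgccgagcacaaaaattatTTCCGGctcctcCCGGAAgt

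3 further motifs were searched on either strand. The amino acid response element of ATF4 was written as TGATGNAAT, the E-box bound by MYC and related factors as CACGTG, and the core of interferon response elements as a pair of GAAA separated by any 2 bases. The response element was in windows of 2 of the 30 genes (6.67%), *TARS1* and *GARS1*, against 0.991% of all windows. E-boxes were in windows of 4 genes (13.3%), *IARS1*, *EARS2*, *CARS2* and *MARS2*, against 7.26% of all windows, and the interferon core was in those of *WARS1* and *EARS2*, against 3.57%. Some genes have more than 1 window, so the share per gene is not on the same footing as the share per window. A match describes the letters in the window and is not evidence of binding. The sites below are printed on the strand of the gene, with the motif in capitals. *IARS1*, *EARS2*, *CARS2* and *WARS1* are shown as genes among those with the largest differences, and *TARS1* and *GARS1* as ATF4 targets. *MARS2* is shown as the remaining gene with an E-box, and the interferon core of *EARS2* is not printed. Other genes with large differences, *FARSB*, *NARS2*, *KARS1* and *FARSA*, had windows without any of these 3 motifs, and *VARS1* had no window.
IARS1, E-box, chr9:92293848-92293913, minus strand: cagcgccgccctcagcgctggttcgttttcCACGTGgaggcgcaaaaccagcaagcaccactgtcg
EARS2, E-box, chr16:23557350-23557375, minus strand: gggagaagccCACGTGtgctattcca
CARS2, E-box, chr13:110706503-110706528, minus strand: ctgggatgcaCACGTGcttcgctaac
MARS2, E-box, chr2:197705328-197705368, plus strand: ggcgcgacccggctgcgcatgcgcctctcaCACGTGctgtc
TARS1, ATF4 element, chr5:33440956-33440984, plus strand: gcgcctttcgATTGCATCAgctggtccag
GARS1, ATF4 element, chr7:30594814-30594877, plus strand: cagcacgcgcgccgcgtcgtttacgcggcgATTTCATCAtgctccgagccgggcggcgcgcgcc
WARS1, interferon core, chr14:100375363-100375432, minus strand: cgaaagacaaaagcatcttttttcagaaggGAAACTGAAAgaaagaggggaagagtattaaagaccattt

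Values are FPKM, fragments per kilobase of transcript, scaled to the sequencing depth, as the authors deposited them. Depth was estimated from the steps between low values as 67800000 to 87900000 fragments per library, where 1 fragment on 1 kb is worth 0.0114 to 0.0147 FPKM. The targeted gene *FGFR2* was at 21.6, 39.7 and 15.02 FPKM in the WT replicates (1, 2 and 3, the order used throughout) and at 3.04, 2.26 and 4.31 FPKM in the KO replicates, low in each library labelled KO. All 8 keratinocyte markers were expressed in each group, with WT means of 139 to 7894 FPKM (*KRT5* highest), while markers of other cell types were mixed. Of 5 fibroblast, 4 melanocyte, 3 endothelial and 4 immune markers, 10 stayed under the filter on low values and 6 passed it. Among the 10, group means were at most 0.0307 FPKM for *COL1A2*, *MLANA* and *CD3E*. The fibroblast gene *LUM*, also under the filter, averaged 0.307 FPKM over WT and 0.644 FPKM over KO libraries. For the 6 that passed, WT means were 13.1 FPKM for *COL1A1*, 5.33 for *DCN* and 1.43 for *PMEL*. They were 21.4 FPKM for *VWF*, 1.69 for *CDH5* and 14.5 for *CD68*. All 6 of the markers that passed had lower means in KO, as did 4821 of all 12241 tested genes. *VWF* and *CD68* had every KO library below every WT library, against 5.77% of all tested genes. *DCN* and *CDH5* passed the filter only through WT replicate 2, so their lower KO means follow from the filter and are no result. The part of these 6 markers in the results was not tested. WT replicate 2 stood apart in the fibroblast gene *DCN*, at 15.5 FPKM, and the endothelial gene *CDH5*, at 4.92 FPKM. No other library exceeded 1.66 and 0.128 FPKM for these genes. WT replicate 2 was also the highest library for *COL1A1*, *PMEL* and *CD68*, but *COL1A1* was nearly level in WT replicate 1 (15.02 against 16.7 FPKM). By contrast, *VWF* was highest in WT replicate 3 (27.1 FPKM), and *LUM* in KO replicate 1 (1.85 FPKM, against 0.903 FPKM in WT replicate 2). Genes of the mitochondrial chromosome took 21.5% to 27.6% of the FPKM in WT libraries and 15.8%, 23.7% and 11.9% in the 3 KO libraries. In RNA from whole cultures, fewer cells of a type and less RNA per cell cannot be told apart.

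All synthetase genes were expressed in HaCaT cells, and the cytosolic ones more strongly than the mitochondrial ones. The median WT mean was 65.5 FPKM for the 18 cytosolic genes, 15.7 FPKM for the 16 mitochondrial genes and 15.4 FPKM for all tested genes. *NARS1*, the cytosolic asparagine enzyme, had the highest level, with 227, 249 and 276 FPKM in WT and 292, 270.0 and 308 FPKM in KO libraries. *QARS1*, the glutamine enzyme, followed at 162, 209 and 160.1 FPKM in WT and 156, 153 and 162 FPKM in KO libraries. Their WT ranges did not overlap, whereas *QARS1* did overlap with *IARS2*, the mitochondrial isoleucine enzyme, which had 144, 162 and 159 FPKM in WT and 187, 160.2 and 239 FPKM in KO libraries. *IARS2* was the exception among mitochondrial genes, since the next of them, *CARS2* (cysteine), had a WT mean of 46.1 ± 11.6 FPKM (SD, n = 3).

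At the other end, *MARS2*, the mitochondrial methionine enzyme encoded by a gene with a single annotated transcript, had 1.21, 2.02 and 1.28 FPKM in WT and 2.20, 1.63 and 4.45 FPKM in KO libraries. *PARS2*, the mitochondrial proline enzyme, had 3.49, 3.88 and 3.96 FPKM in WT and 4.17, 4.12 and 4.23 FPKM in KO libraries. *TARS3*, a second cytosolic threonine enzyme, had the lowest level of the cytosolic group, with 5.31, 5.90 and 7.23 FPKM in WT and 5.13, 4.67 and 5.18 FPKM in KO libraries. The main threonine gene *TARS1* was between 18.6 and 23.6 times as high as *TARS3* in the WT libraries. The RNA sequences of *TARS1* and *TARS3* can be told apart, because none of the 4410 stretches of 31 bases (31-mers) in annotated *TARS1* transcripts occurs in another gene, where 31 bases is the usual word length of the Kallisto index. Over the 36 genes the median share of 31-mers found in another gene was 5%. It was 62.1% for *VARS2* and 43.7% for *SARS2*, which overlap an annotated long non-coding RNA and an annotated read-through gene, and 21.3% for *YARS2*, so the values of these 3 genes are less certain. Whether strand was used in the quantification is not given in the sources used here.

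**Figure D1:**
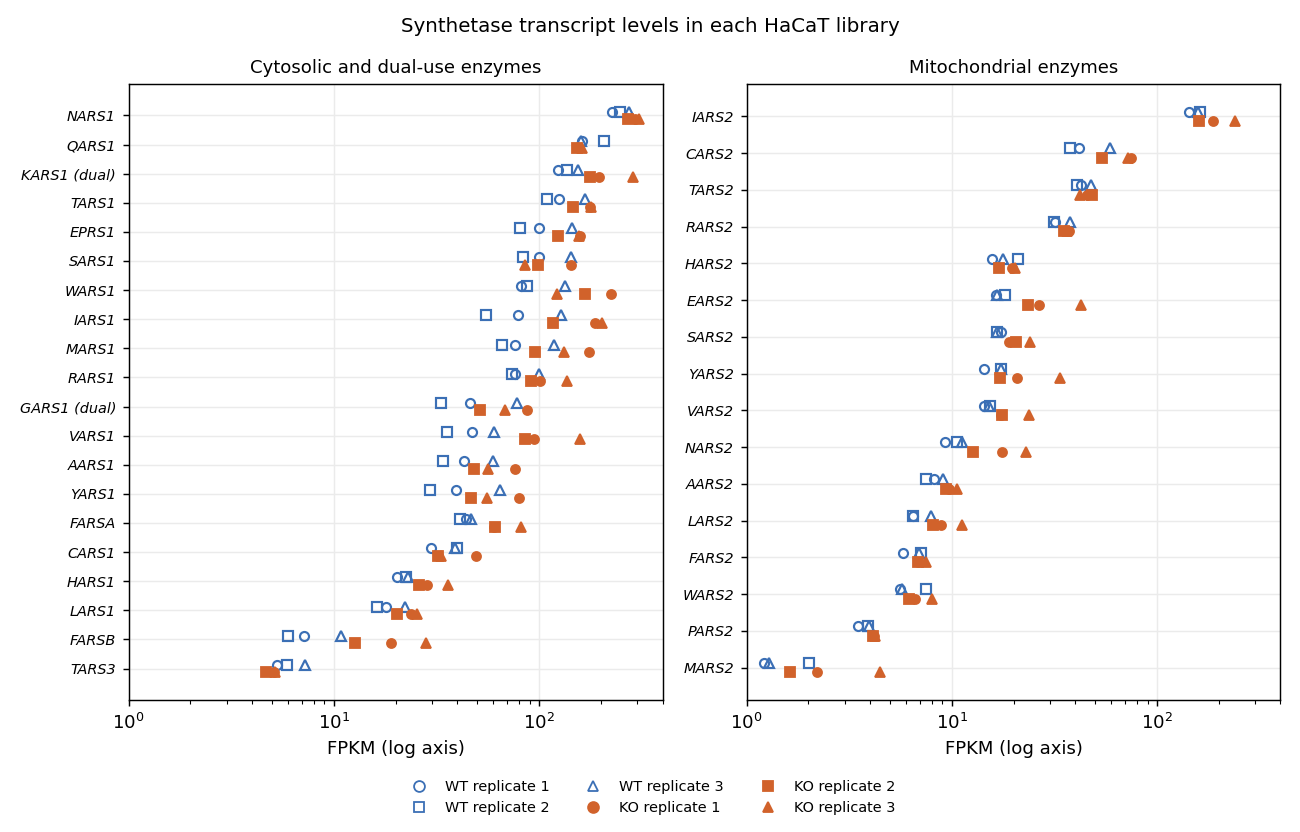
FPKM of the 36 synthetase genes in each library on a log axis, with the cytosolic and dual-use genes on the left and the mitochondrial genes on the right, ordered by WT mean (open symbols, WT; filled symbols, KO; shapes, replicates). *NARS1* and *IARS2* lead their panels, the KO symbols of *FARSB*, *VARS1*, *EARS2* and *NARS2* lie to the right of all WT symbols, and those of *TARS3* to the left.

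In the comparison of KO with WT, 34 of the 36 synthetase genes had a higher mean in the *FGFR2* KO lines and 2, *QARS1* and *TARS3*, a lower one. The median log2 fold change was 0.40 over the 36 genes and 0.09 over all 12241 tested genes, of which 60.6% had a higher mean. The largest differences were in *FARSB*, *VARS1* and *IARS1*, whose means in KO lines were 2.49, 2.36 and 1.93 times those in WT lines. A gene was called in limma's moderated test when its adjusted p did not exceed 0.05 and it differed by 0.5 or more on the log2 scale in either direction. No synthetase gene was called, nor was any other gene (0% of 12241), and the smallest adjusted p was 0.261 with Benjamini-Hochberg adjustment. The targeted gene *FGFR2* was not called either, at a log2 fold change of -2.73 (limma, adjusted p = 0.261). A gene that was not called is therefore not shown to be unchanged. The paper, which used DESeq2, did report differentially expressed genes. Without adjustment, 9 synthetase genes (25%) passed the same limits, all higher in KO, where 10.2% of all tested genes met this in the same direction, and 0 of 36 were lower, against 2.33%. These 9 genes were *FARSB*, *VARS1*, *IARS1*, *EARS2*, *WARS1*, *NARS2*, *KARS1*, *FARSA* and *CARS2*. The count depended on single libraries, with 5 genes without WT replicate 1, 5 without KO replicate 3 and 16 without WT replicate 3.

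Another view is whether the libraries of the groups overlap. In 12 synthetase genes (33.3%) every KO library lay above every WT library, against 18.3% of all tested genes, and in 1 gene, *TARS3*, every KO library lay below, against 5.77%. With 3 libraries against 3, such a gene has an exact two-sided permutation p of 0.1, the smallest this design allows. The split between higher and lower genes moved with the scaling of the libraries. With median-of-ratios scaling the median of all tested genes went to 0, and 818 genes were higher and 489 lower at the unadjusted threshold, in place of 1251 and 285. Under this scaling 30 of the 36 synthetase genes were higher, with a median of 0.30, and 8 lay above and 2 below without overlap (22.2% and 5.56%, against 12.5% and 10.4% of all tested genes), a count added after the data had been seen.

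**Figure D2:**
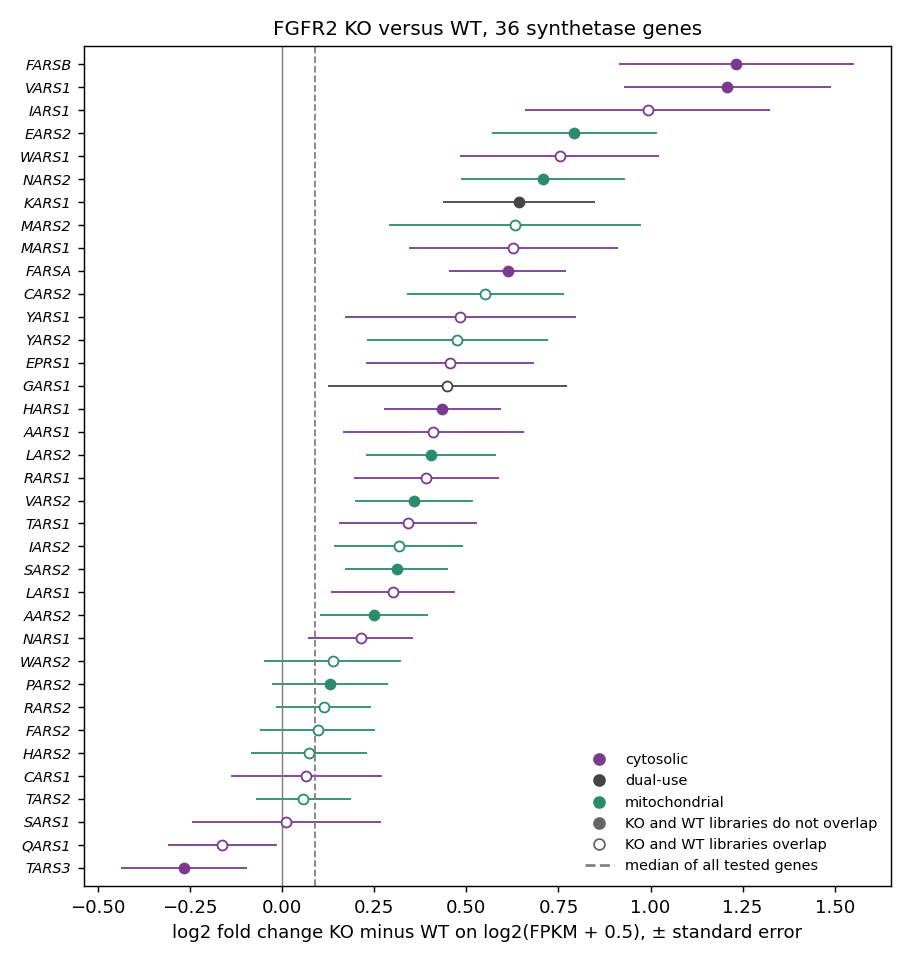
Log2 fold change of KO minus WT with its standard error for the 36 synthetase genes, on log2(FPKM + 0.5), colored by compartment, with filled points where the KO and WT libraries do not overlap. 34 of the 36 points lie to the right of 0, and the dashed line marks the median of all tested genes at 0.09.

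The cytosolic phenylalanine enzyme showed the difference in both of its subunits. *FARSB* (ENSG00000116120, chr2:222566899-222656092), the beta subunit, had 7.14, 6.001 and 10.8 FPKM in WT and 18.9, 12.6 and 28.1 FPKM in KO libraries. *FARSA* (ENSG00000179115, chr19:12922479-12934037), the alpha subunit, had 43.8, 41.1 and 46.7 FPKM in WT and 60.4, 61.3 and 82.1 FPKM in KO libraries. Neither gene overlapped between the groups, and KO replicate 3 was the highest library for both. The log2 fold changes were 1.23 (standard error 0.32) for *FARSB* and 0.61 (standard error 0.16) for *FARSA*. Although the subunits assemble in equal numbers, the FPKM of *FARSA* was 4.32 to 6.85 times that of *FARSB* in WT libraries and 2.92 to 4.85 times in KO libraries, ranges that overlap. The mitochondrial enzyme for the same amino acid, *FARS2*, is a single chain and had 5.78 to 7.05 FPKM in WT and 6.82 to 7.52 FPKM in KO libraries.

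*VARS1* (ENSG00000204394, chr6:31777518-31795752), the cytosolic valine enzyme, had 47.3, 35.4 and 60.5 FPKM in WT and 94.1, 85.2 and 159 FPKM in KO libraries. The groups were separate, and the log2 fold change was 1.21 (standard error 0.28), between 0.93 and 1.40 with any 1 library left out. *IARS1* (ENSG00000196305, chr9:92210207-92293854), the cytosolic isoleucine enzyme, had 78.7, 55.4 and 129 FPKM in WT and 187, 118 and 203 FPKM in KO libraries. Here KO replicate 2 lay below WT replicate 3, so the groups overlapped despite a log2 fold change of 0.99 (standard error 0.33). *WARS1* (ENSG00000140105, chr14:100333790-100376805) had 81.7, 87.6 and 134 FPKM in WT and 225, 167 and 122 FPKM in KO libraries, with the highest level in KO replicate 1 and the lowest KO level, in replicate 3, below WT replicate 3. Its log2 fold change was 0.75 (standard error 0.27). *HARS1*, the cytosolic histidine enzyme, had 20.3, 22.5 and 23.1 FPKM in WT and 28.4, 26.0 and 35.8 FPKM in KO libraries. The groups did not overlap, at a log2 fold change of 0.44 (standard error 0.16), below the fold-change threshold; 2187 of its 14800 31-mers (14.8%) occur in another gene, 1066 of them in *WDR55*.

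Among the dual-use genes, *KARS1* (ENSG00000065427, chr16:75627474-75648643) had 124, 137 and 156 FPKM in WT and 196, 178 and 288 FPKM in KO libraries. The groups were separate, with a log2 fold change of 0.64 (standard error 0.21). *GARS1* varied as much within WT as between the groups, with 46.0, 33.4 and 78.2 FPKM in WT and 87.7, 51.5 and 68.1 FPKM in KO libraries.

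All 16 mitochondrial genes had a higher mean in KO lines, and in 7 of them (43.8%, against 18.3% of all tested genes) the KO libraries lay above all WT libraries. Under median-of-ratios scaling 14 of the 16 were higher and 3 lay above without overlap, where 12.5% of all tested genes did. *EARS2* (ENSG00000103356, chr16:23520754-23557731), the glutamate enzyme, which in mitochondria also starts the route to glutamine-charged tRNA, had 16.4, 18.2 and 16.6 FPKM in WT and 26.7, 23.4 and 42.6 FPKM in KO libraries. Its log2 fold change was 0.79 (standard error 0.22). *NARS2* (ENSG00000137513, chr11:78435620-78575194), the asparagine enzyme, had 9.26, 10.6 and 11.3 FPKM in WT and 17.6, 12.7 and 22.9 FPKM in KO libraries. Both genes were narrow in WT and spread out in KO, where replicate 3 was the highest and replicate 2 the lowest library. *CARS2*, the cysteine enzyme, had 41.5, 37.6 and 59.3 FPKM in WT and 75.0, 54.1 and 72.6 FPKM in KO libraries, where KO replicate 2 lay below WT replicate 3.

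The other mitochondrial genes without overlap differed less. *LARS2* (leucine) had 6.47, 6.45 and 7.90 FPKM in WT and 8.84, 8.13 and 11.2 FPKM in KO libraries. *VARS2* (valine) had 14.4, 15.4 and 15.3 FPKM in WT and 17.3, 17.6 and 23.7 FPKM in KO libraries, and *SARS2* (serine) 17.4, 16.6 and 16.6 FPKM and 18.9, 20.6 and 24.0 FPKM. For *VARS2* and *SARS2* the overlaps given above apply. *AARS2* (alanine) had 8.23, 7.49 and 9.03 FPKM in WT and 9.70, 9.36 and 10.6 FPKM in KO libraries. Together with *PARS2*, these genes had log2 fold changes of 0.13 to 0.40, and none had an unadjusted p of at most 0.05 in limma. The remaining mitochondrial genes, *TARS2*, *HARS2*, *FARS2*, *RARS2*, *WARS2*, *IARS2*, *YARS2* and *MARS2*, overlapped between the groups, with log2 fold changes of 0.06 to 0.63.

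Cytosolic and mitochondrial enzymes were then compared directly. The median log2 fold change was 0.42 for the 18 cytosolic genes, from -0.27 to 1.23, and 0.31 for the 16 mitochondrial genes, from 0.06 to 0.79. The difference between these medians, 0.11, was smaller than the spread of the same difference between libraries of a group (pooled SD 0.236). It was -0.08 without WT replicate 2 and -0.02 without KO replicate 1, 0.25 without WT replicate 3 and 0.17 without KO replicate 2. The spread among the WT lines was also compared, without a test. Across the 3 WT libraries, the median range of a gene was 0.65 on the log2 scale for cytosolic genes, 0.26 for mitochondrial genes and 0.38 for all tested genes. In KO libraries these ranges were 0.60, 0.40 and 0.44. Set against its own WT mean on the log2 scale, the median cytosolic gene was at -0.10, -0.23 and 0.36 in the WT libraries and at 0.46, 0.16 and 0.44 in the KO libraries, so that WT replicate 3 lay above KO replicate 2. The median mitochondrial gene was at -0.10, 0.04 and 0.07 in WT and 0.21, 0.13 and 0.56 in KO libraries, without overlap. The median of all tested genes did not overlap either, at -0.04, 0.03 and 0.02 in WT and 0.10, 0.05 and 0.15 in KO libraries.

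Summed over the 36 genes, synthetase RNA made up 0.324%, 0.303% and 0.399% of the FPKM of genes outside the mitochondrial chromosome in the WT replicates and 0.448%, 0.393% and 0.450% in the KO replicates. KO replicate 2 was below WT replicate 3 in this share. The mitochondrial enzymes alone made up 0.0670%, 0.0675% and 0.0728% in WT and 0.0796%, 0.0765% and 0.0928% in KO libraries, all above WT.

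**Figure D3:**
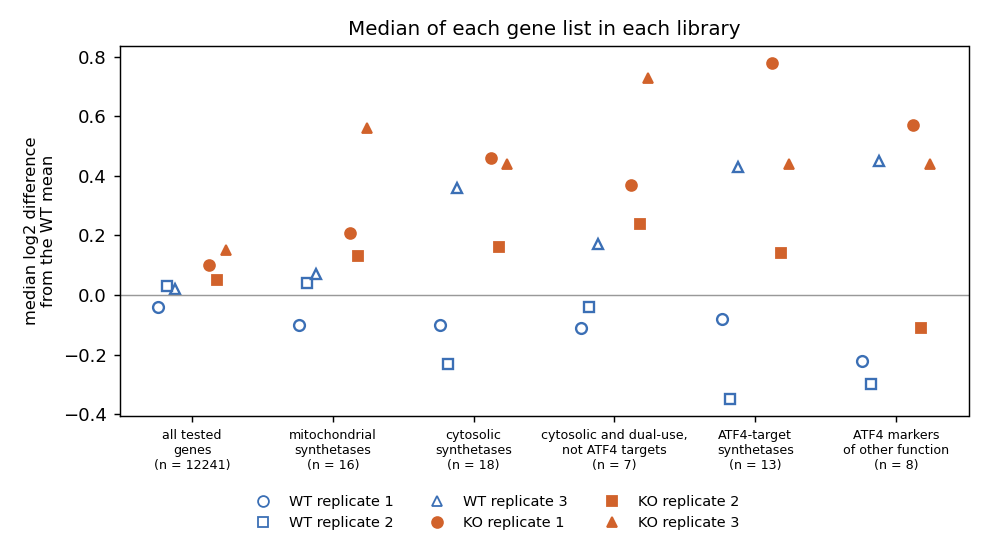
Median log2 difference from the WT mean in each library, for all tested genes, 4 groups of synthetase genes and a list of ATF4 markers outside the synthetases (open symbols, WT; filled symbols, KO; shapes, replicates). The KO medians lie above all WT medians for the mitochondrial genes and also for all tested genes, while WT replicate 3 lies among the KO libraries for the cytosolic genes, the ATF4 targets and the ATF4 markers.

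The ratio of cytosolic to mitochondrial enzyme within a library does not change when a library is multiplied by a scaling factor. It was formed for 17 pairs by amino acid, which are not all separate. *FARS2* is the denominator for both *FARSA* and *FARSB*, and *EPRS1* the numerator over both *EARS2* and *PARS2*. Both pairs with *FARS2* are among the 4 higher ones counted next. In 4 pairs the ratio was higher in all KO libraries than in any WT library, in 1 it was lower, and in 12 the groups overlapped. No pair can have an exact permutation p under 0.1 in this design. The same count was not made for other pairs of genes, so these numbers have no background share beside them. *FARSB* over *FARS2* differed most, with 1.24, 0.851 and 1.55 in WT and 2.77, 1.85 and 3.74 in KO libraries. *VARS1* over *VARS2* was 3.29, 2.30 and 3.96 in WT and 5.43, 4.83 and 6.70 in KO libraries. This ratio is less certain, because most 31-mers of *VARS2* occur in another gene. *FARSA* over *FARS2* was 7.59, 5.83 and 6.72 in WT and 8.87, 8.95 and 10.9 in KO libraries. The divergent genes *HARS1* and *HARS2*, whose RefSeq starts flank the 84 bases printed above, were also separate in their ratio. It was 1.29, 1.08 and 1.305 in WT and 1.44, 1.54 and 1.76 in KO libraries. *HARS2* itself was at 15.7 to 20.9 FPKM in WT and 17.0 to 20.4 FPKM in KO libraries. *NARS1* over *NARS2* went the other way, with 24.5, 23.5 and 24.5 in WT and 16.6, 21.3 and 13.5 in KO libraries. *IARS1* was below *IARS2* in each WT library, at a ratio of 0.547, 0.342 and 0.809. The ratio was 1.0006, 0.734 and 0.850 in KO replicates 1, 2 and 3, so the groups overlapped.

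**Figure D4:**
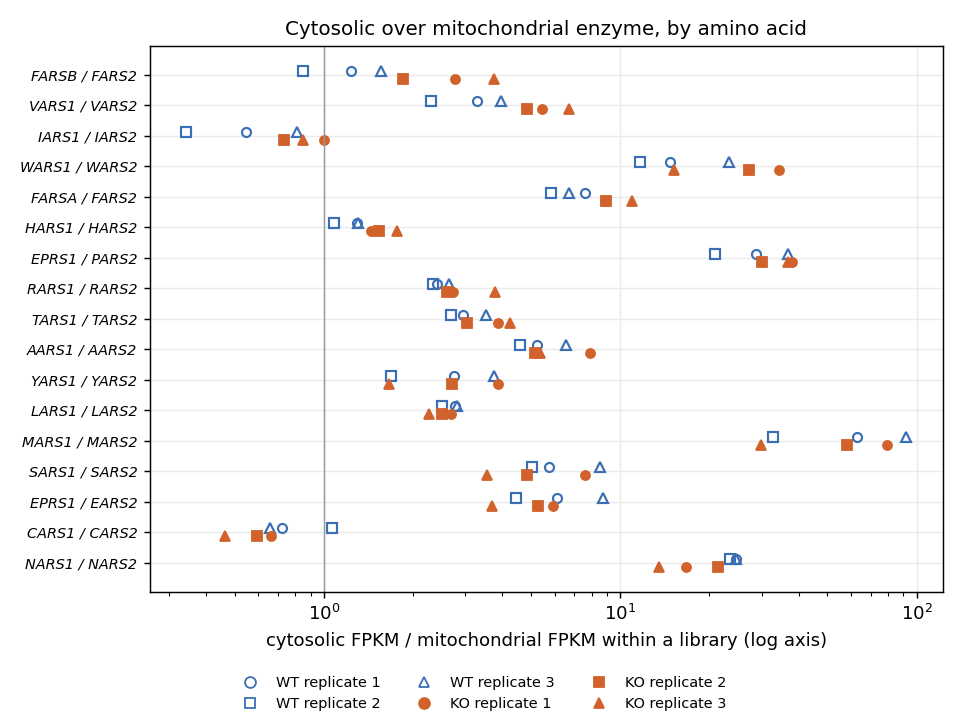
Ratio of the FPKM of the cytosolic to that of the mitochondrial enzyme in each library for 17 pairs, on a log axis, ordered by the difference between KO and WT (open symbols, WT; filled symbols, KO; shapes, replicates). The groups are separate for *FARSB* and *FARSA* over *FARS2*, *VARS1* over *VARS2*, *HARS1* over *HARS2* and *NARS1* over *NARS2*, and *IARS1* over *IARS2* and *CARS1* over *CARS2* lie near or below 1.

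The genes with lower means in KO were *QARS1* and *TARS3*. For *TARS3* the log2 fold change was -0.27 (standard error 0.17), and each KO library lay below each WT library; without WT replicate 3 it was -0.15. In relation to it, *TARS1* was 34.6, 31.5 and 34.5 times as high in KO replicates 1, 2 and 3, above the WT ratios given above. *QARS1*, at -0.16 (standard error 0.15), overlapped between the groups, its highest value being that of WT replicate 2, without which the difference was -0.04. With median-of-ratios scaling the KO libraries of *QARS1* too lay below all WT libraries.

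The 7 enzymes of the multi-tRNA synthetase complex on the list (*EPRS1*, *IARS1*, *KARS1*, *LARS1*, *MARS1*, *QARS1* and *RARS1*) had a median log2 fold change of 0.46, and 1 of them, *KARS1*, was separate between the groups (14.3%, against 18.3% of all tested genes). The 12 cytosolic genes outside the complex had a median of 0.42, and 4 (33.3%) were separate and higher. Its scaffold genes spread over a similar range. *EEF1E1* had 14.4, 16.4 and 15.3 FPKM in WT and 24.5, 20.1 and 39.3 FPKM in KO libraries, and *AIMP2* 30.8, 36.3 and 39.0 FPKM and 46.5, 41.6 and 78.8 FPKM, neither with overlap. *AIMP1* had 16.8, 19.9 and 19.7 FPKM in WT and 20.2, 20.5 and 25.1 FPKM in KO libraries, also without overlap. By the 2 structural classes of synthetases, which differ in the fold of their catalytic domain, the median was 0.44 for 18 class I genes and 0.31 for 17 class II genes, with 17 and 16 of them higher in KO.

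Beyond the enzymes, 20 genes of tRNA charging and delivery were examined, the 3 scaffold genes included. Of these, 0 were called, and 3 passed the unadjusted limits, all higher (15%, against 10.2% of all tested genes in that direction). In 8 the KO libraries lay above without overlap (40%, against 18.3% of all tested genes). This overlap was not counted under median-of-ratios scaling for this list. Their median log2 fold change was 0.21. *AARSD1*, which clears mischarged alanine tRNA, had 27.2, 24.0 and 26.2 FPKM in WT and 38.6, 38.4 and 54.3 FPKM in KO libraries. *TRNT1*, which adds the CCA end to which amino acids are joined, had 6.05, 5.502 and 5.77 FPKM in WT and 7.4001, 7.18 and 9.95 FPKM in KO libraries. The genes of the mitochondrial amidotransferase that completes glutamine-charged tRNA after *EARS2* had log2 fold changes of 0.06 (*QRSL1*), -0.05 (*GATB*) and 0.13 (*GATC*), with standard errors of 0.13 to 0.15. The elongation factor *EEF1A1*, which carries charged tRNA to cytosolic ribosomes, averaged 3467 ± 604 FPKM over the WT libraries and 3246 ± 553 FPKM over the KO libraries (SD, n = 3 each).

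The 13 synthetase genes known as ATF4 targets all had a higher mean in KO, with a median log2 fold change of 0.45, but only *VARS1* of these 13 (7.69%, against 18.3% of all tested genes) was separate between the groups. Of the 7 other cytosolic and dual-use genes, with a median of 0.44, 4 (57.1%) lay above without overlap (*FARSA*, *FARSB*, *HARS1* and *KARS1*); the difference between these counts was not tested. The ATF4 targets varied among WT lines, with a median range of 0.77 on the log2 scale against 0.38 for the other cytosolic and dual-use genes. In 10 of the 13 the lowest WT library was replicate 2 and the highest replicate 3, an order found in 26.8% of all tested genes and also in 7 of the 8 keratinocyte markers. Set against the WT mean, their median on the log2 scale was -0.08, -0.35 and 0.43 in the WT libraries and 0.78, 0.14 and 0.44 in the KO libraries. *SARS1*, the cytosolic serine enzyme, had 99.8, 83.4 and 142 FPKM in WT and 143, 99.3 and 85.2 FPKM in KO libraries. WT replicate 3 and KO replicate 1 were level for this gene, and the means differed by 0.01 on the log2 scale (standard error 0.26).

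Of 8 markers of the ATF4 response outside the synthetases, 4 (*ASNS*, *PSAT1*, *CHAC1* and *PHGDH*) were lowest in replicate 2 and highest in replicate 3 among the WT libraries, and 4 were not. That order was found in 26.8% of all tested genes. *ASNS*, asparagine synthetase, had 6.86, 2.92 and 31.1 FPKM in WT and 35.0, 6.34 and 12.2 FPKM in KO libraries. *PSAT1*, an enzyme of serine synthesis, had 34.7, 18.0 and 99.2 FPKM in WT and 139, 41.8 and 89.7 FPKM in KO libraries, and *CHAC1* 0.908, 0.470 and 3.32 FPKM and 4.17, 1.02 and 2.11 FPKM. For these 3 genes, chosen after their values were seen, WT replicate 3 and KO replicate 1 were the highest libraries and WT replicate 2 the lowest. The stress genes *DDIT3* and *SESN2* were instead highest in WT replicate 2, at 12.6 and 9.69 FPKM, and had lower means in KO (log2 fold changes of -0.15 and -0.17). *TRIB3* was highest in KO replicate 3 at 40.9 FPKM, and *ATF4* itself was lowest in WT replicate 1 at 152 FPKM. Over the 8 markers, 0 were separate between the groups, against 18.3% of all tested genes above and 5.77% below. The part of this variation in the synthetase differences was not tested.

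Other genes induced by interferon gamma, examined because of *WARS1*, had higher means in 5 and lower means in 2 cases. Of 9 on the list, 7 passed the filter on low values, *CXCL10* was listed at 0 in all libraries, and the median log2 fold change was 0.13. *GBP1* had 1.01, 1.69 and 1.45 FPKM in WT and 2.26, 2.81 and 2.21 FPKM in KO libraries, whereas *GBP2* had 8.99, 17.6 and 8.56 FPKM and 5.25, 9.33 and 2.93 FPKM. *WARS1* was highest in KO replicates 1 and 2, whereas *IRF1* was highest in WT replicate 2 at 93.45 FPKM.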

How the data were processed

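Per the file headers, the deposited values are FPKM for each gene and library. According to the methods and the submitters' processing notes, the authors trimmed reads with fastp 0.20.0 and pseudoaligned them with Kallisto 0.46.1 to GRCh38 with GENCODE gene models; the libraries were poly(A)-selected and stranded. How FPKM were calculated is not given in the sources used here. The tables hold 21493 genes. Of these, 18 Y copies of pseudoautosomal genes were left out, and 21400 genes were given symbols and positions from GENCODE release 44 (GRCh38). Among low values, 61.2% of 4341 from single-transcript genes were whole fragments within 0.02, at the depth that fitted these values best. The 4% expected by chance holds for a depth not fitted to them. Reads were therefore not recovered, and count models were not run.

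The 12241 genes whose mean reached 0.5 FPKM, all 36 synthetases among them, entered limma (version 3.58.1, R 4.3.3) as log2(FPKM + 0.5), with a mean-variance trend and Benjamini-Hochberg adjustment; such fold changes understate the changes of low genes. The test was also run on simulated data, with planted changes larger than any synthetase difference here. Those runs do not show how well smaller changes are found. The members, lists, classes and thresholds were chosen with earlier results of these data known. Every member could be named, with values per library for those past the unadjusted threshold, those without overlap, and the 3 highest and 3 lowest by level; other values shown were chosen after they were seen. Alternatives were other pseudocounts, filters, scalings, empirical Bayes settings, library weights, a replicate block, removal of chromosome medians and leaving out each library. Sequences are from RefSeq.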

Additional observations from a re-analysis of the deposited data

How the results depend on the processing

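No gene was called by adjusted p in any alternative except with libraries weighted by their quality. With these weights 1396 of the 12241 tested genes were called, among them 10 of the 36 synthetase genes, these all higher in KO. In that fit WT replicate 1 carried 89.7% of the weight of the WT group. *FGFR2* was called there too, at a log2 fold change of -2.66 (limma, adjusted p = 0.0191). The unadjusted threshold was passed by 16 of the 36 synthetase genes, all higher in KO, where 1667 of all tested genes (13.6%) met it in that direction. With 1 library left out, between 5 and 16 synthetase genes and between 633 and 2262 of all tested genes passed the unadjusted threshold, and *FGFR2* stayed between -3.05 and -2.36. Across the scalings and filters this number of synthetase genes was 6 to 10, with 6 after quantile normalization. Means that differed little changed direction. With median-of-ratios scaling, quantile normalization and scaling to nuclear genes the log2 fold changes were -0.03, -0.04 and -0.01 for *CARS1*, -0.08, -0.12 and -0.07 for *SARS1*, -0.02, -0.05 and -0.0048 for *HARS2*, and -0.04, -0.06 and -0.02 for *TARS2*. With 1 library left out, *CARS1* lay between -0.13 and 0.18, *SARS1* between -0.20 and 0.22, and *HARS2* between -0.02 and 0.18. The cytosolic median stayed between 0.25 and 0.57 and the mitochondrial median between 0.18 and 0.38 in all alternatives. The deviations of libraries with the same replicate number had correlations of -0.206, 0.225 and 0.049 over genes. With 3 libraries a group, these values cannot decide whether the numbers mark a shared batch. With the replicate block, 0 genes were called, and the smallest adjusted p in limma was 0.0972, against 0.261 in the main fit. The unadjusted threshold was then passed by 1762 of all tested genes, against 1536, and by 10 synthetase genes, against 9. The cause of these changes was not tested, and with 3 libraries a group no single gene can go below an exact permutation p of 0.1.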
